A study of Zea mays with 12 samples.

Results

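WRKY53 (Zm00001d020492) and WRKY TF 36 (Zm00001d049173) are 2 maize genes for transcription factors of the WRKY family, out of 38444 features in the deposited count table. They were chosen by their measured levels in these libraries, both being higher in the libraries labelled mop1-1 than in those labelled WT. The difference between genotypes is therefore given below as a description with no test. What could be tested was their response to abscisic acid (ABA). Its mean over both genotypes weighs treated and untreated libraries of each genotype alike. The choice by genotype would stay out of this mean if all groups had the same spread. The replicates spread more in some groups than in others, so the p-values of this mean may not be free of the choice. The response in 1 genotype alone compares groups whose levels entered the choice. The difference between genotypes in the response is built from the contrasts that chose the genes. The p-values of these are therefore not free of the choice. Both genes were among the 26401 features that reached 0.58 CPM, the share of a library's counts scaled to a common library size, in at least 3 libraries.

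WRKY proteins are a large plant family of DNA-binding factors that recognise a short element, the W-box, in the promoters of many stress genes, often including their own. They take part in the responses to pathogens, wounding, senescence and ABA, and several are phosphorylated by MAP kinases. In Arabidopsis, the protein named WRKY53 regulates leaf senescence and defence, and in rice the protein of that name acts in defence against pathogens and insects. Maize numbers do not by themselves mark the counterpart of an Arabidopsis or rice gene, so these roles are background on the family. MOP1 is a maize RNA-dependent RNA polymerase that makes double-stranded RNA for RNA-directed DNA methylation, a pathway that silences transposons and some genes near them. ABA is the hormone that carries the signal of water shortage.

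The RNA came from shoots of V3 seedlings (3 leaves with a visible collar) whose roots had stood for 1 h in Murashige and Skoog medium, either plain (MS) or containing 50 µM ABA (ABA). The mutants were homozygous for mop1-1, an allele introgressed into the B73 inbred, and the WT seedlings were their homozygous siblings from a selfed heterozygous plant, so that both genotypes shared the uprooting, the medium and most of the B73 background. Each of the 4 groups, WT MS, WT ABA, mop1-1 MS and mop1-1 ABA, had 3 libraries, which the methods call biological replicates, and the number of seedlings behind a library is not given in the sources used here. Total counts were 38295994 to 65574775 per library, with a median of 58322593, and no library was a copy of another. Summed levels of 6 shoot markers, picked by the names of photosynthesis genes, were 2710 to 3770 CPM for WT without ABA and 2860 to 3830 with it, and 2550 to 3180 CPM for mop1-1 without ABA and 2400 to 2890 with it. CP22, also named psbs1, made up most of this, with group means of 1750 to 2230 CPM. The 3 genes listed as root markers were picked by how their names begin, with no check that they mark roots. They summed to 47.9 to 87.3 CPM over all libraries. Most of that sum was Bk2L4, a gene of the brittle stalk 2-like family, with group means of 60.9 to 67.1 CPM, and both root aquaporin genes named por2 were below 1 CPM in all 12 libraries. The comparisons follow the study's names. Their signs come from the deposited counts, with groups assigned by the deposited titles. They were not taken from the study's lists and can differ from them. Groups A and B are ABA against MS, in mop1-1 and in WT. Groups C and D are mop1-1 against WT, with ABA and without it.

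In WT MS, WRKY53 was at 3.35, 1.84 and 1.67 CPM in replicates 1, 2 and 3 (mean 2.29 ± 0.928, SD, n = 3), from 376 counts in all. WT ABA seedlings had 4.67, 2.21 and 1.97 CPM (2.95 ± 1.5, SD, n = 3). The WT libraries thus held this transcript at a few CPM with and without ABA, and the 2 WT groups overlapped. In mop1-1 MS the levels were 22.2, 6.64 and 14.7 CPM (14.5 ± 7.8, SD, n = 3), from 1323, 420 and 872 counts. In mop1-1 ABA they were 14.7, 3.94 and 2.8 CPM (7.15 ± 6.57, SD, n = 3), from 895, 158 and 173 counts. All 3 mop1-1 MS libraries lay above all WT MS libraries, whereas in mop1-1 ABA 2 of the 3 libraries lay below the highest WT ABA library. In these whole shoots, a change in the RNA per cell and a change in the number of cells that hold it cannot be told apart.

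WRKY TF 36 was at 2.07, 1.61 and 3.39 CPM in WT MS (2.36 ± 0.925, SD, n = 3), from 95, 100 and 220 counts. In WT ABA it was at 1.9, 1.49 and 1.13 CPM (1.5 ± 0.387, SD, n = 3). The WT groups of this gene overlapped as well, and their lowest library held 59 counts. In mop1-1 MS the levels were 10.6, 3.83 and 5.46 CPM (6.64 ± 3.56, SD, n = 3), from 633, 242 and 323 counts. In mop1-1 ABA they were 4.55, 4.19 and 3.78 CPM (4.18 ± 0.385, SD, n = 3), from 277, 168 and 234 counts. Each of the 6 mop1-1 libraries lay above each of the 6 WT libraries, with the narrowest gap between 3.78 CPM in mop1-1 ABA and 3.39 CPM in WT MS. The gene was chosen for being higher in mop1-1, and the share of all features separated in this way was not computed.

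**Figure D1:**
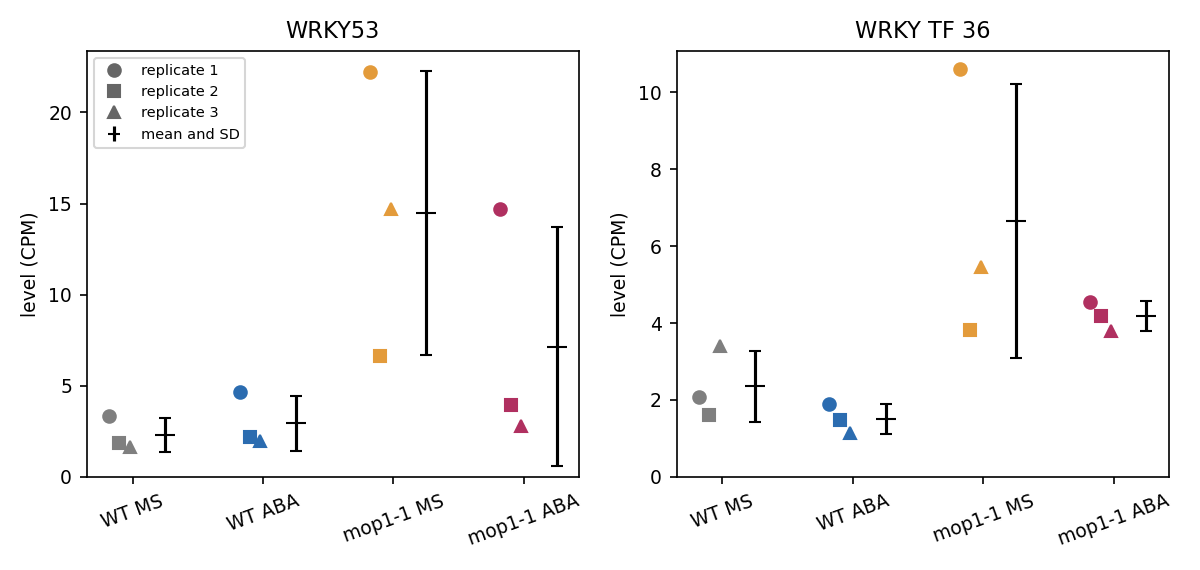
Levels of WRKY53 (left) and WRKY TF 36 (right) in CPM on linear axes from 0, with 1 point per library, the symbol giving the replicate number, and the mean with its SD beside each group of 3. The mop1-1 MS libraries of WRKY53 span 6.64 to 22.2 CPM, and in mop1-1 ABA replicate 1, at 14.7 CPM, sits far above the other two, at 3.94 and 2.8 CPM.

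As a description of the contrast that chose the genes, the fitted log2 difference of mop1-1 from WT without ABA (Group D) was 2.67 ± 0.65 (SE) for WRKY53, a 6.39-fold higher level, and 1.49 ± 0.39 (SE) for WRKY TF 36, a 2.81-fold higher level. Under ABA (Group C) it was 1.28 ± 0.62 (SE) for WRKY53, or 2.43-fold, and 1.47 ± 0.39 (SE) for WRKY TF 36, or 2.77-fold. Of all features tested, 7.45% had every mop1-1 MS library above every WT MS library, as both genes did, and 12.5% had every mop1-1 ABA library above every WT ABA library, as WRKY TF 36 did and WRKY53 did not. The size of the WRKY53 difference under ABA depended on 1 library. Without mop1-1 ABA replicate 1 it was 0.19, and with any other single library left out it was 1.06 to 1.78. For WRKY TF 36, leaving out single libraries gave 1.3 to 1.67 in Group C and 0.98 to 1.85 in Group D, the lowest of the latter without mop1-1 MS replicate 1.

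**Figure D2:**
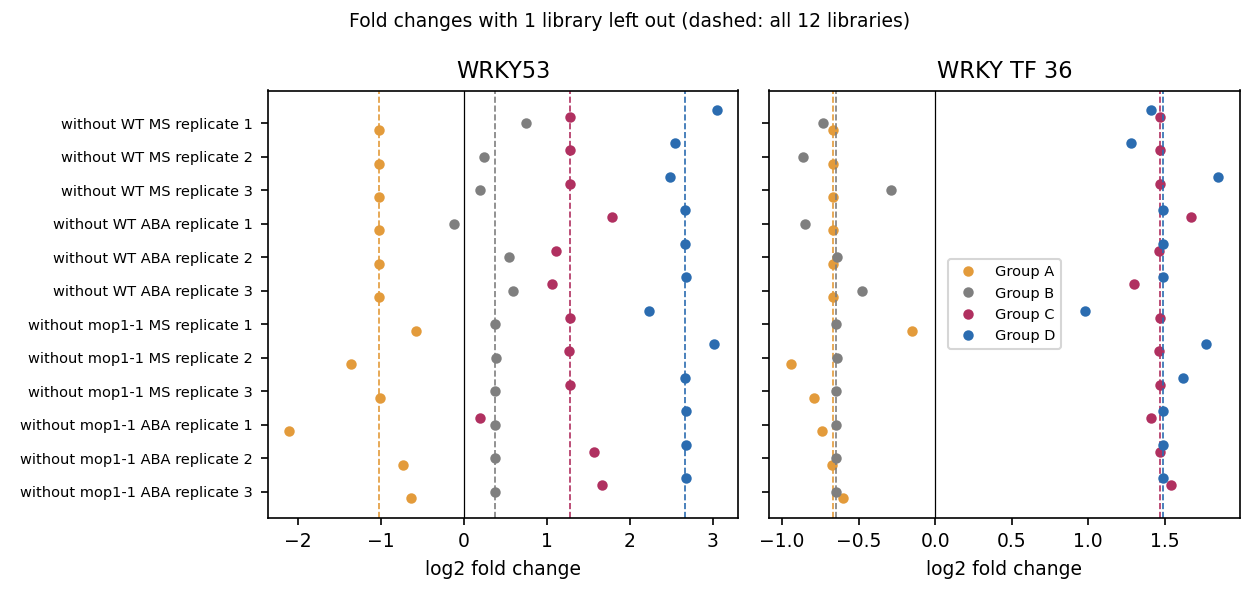
Log2 fold changes of WRKY53 (left) and WRKY TF 36 (right) in Groups A to D, refitted with 1 of the 12 libraries left out at a time (rows), beside the value with all libraries (dashed lines). For WRKY53, leaving out mop1-1 ABA replicate 1 moves Group C from 1.28 to 0.19 and Group A from -1.02 to -2.11.

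The response to ABA was tested with the quasi-likelihood (QL) test of edgeR, which called no feature in Group A or Group B (0% of 26401 in each), where the thresholds for a call were 0.05 on the adjusted p and 0.95 on the size of the log2 fold change. At an unadjusted p below 0.05, 1011 features passed in mop1-1 and 1887 in WT, and DESeq2 called 13 and 68. For WRKY53 the log2 fold change with ABA in mop1-1 was -1.02 ± 0.61 (SE; 95% interval -2.35 to 0.31; edgeR QL unadjusted p = 0.121, adjusted p = 1). In WT it was 0.37 ± 0.63 (SE; 95% interval -0.99 to 1.74; edgeR QL unadjusted p = 0.56, adjusted p = 0.945). Neither passed the test, and both intervals include 0 as well as changes of about the size of the threshold. The difference between the ABA effects of the genotypes, the interaction, was -1.4 ± 0.87 for WRKY53 (SE; 95% interval -3.3 to 0.51; edgeR QL unadjusted p = 0.136, adjusted p = 1). The interaction is also the Group C value less the Group D value, and these contrasts chose the gene.

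As in Group C, 1 library moved these values. Without mop1-1 ABA replicate 1, the ABA value of WRKY53 in mop1-1 was -2.11 (edgeR QL unadjusted p = 0.00296, adjusted p = 0.923) and the interaction was -2.49 (edgeR QL unadjusted p = 0.00531, adjusted p = 1). Without mop1-1 MS replicate 1, the value in Group A was -0.58, and without WT ABA replicate 1 the value in Group B was -0.12. Over all alternatives, the smallest adjusted p of WRKY53 in Group A was 0.923.

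WRKY TF 36 had negative ABA values of like size in both genotypes. The log2 fold change was -0.67 ± 0.38 in mop1-1 (SE; 95% interval -1.5 to 0.16; edgeR QL unadjusted p = 0.104, adjusted p = 1) and -0.65 ± 0.39 in WT (SE; 95% interval -1.5 to 0.2; edgeR QL unadjusted p = 0.121, adjusted p = 0.78). Their difference was -0.019 ± 0.56 (SE; 95% interval -1.23 to 1.19; edgeR QL unadjusted p = 0.973, adjusted p = 1), an interval too wide to show that the genotypes responded alike. Without mop1-1 MS replicate 1, at 10.6 CPM the highest library of this gene, the value in Group A was -0.15 and the interaction was 0.5. The value in Group B was -0.29 without WT MS replicate 3, the highest WT library.

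Averaged over both genotypes, the ABA effect on WRKY TF 36 was -0.66 ± 0.27 (SE; 95% interval -1.25 to -0.066; edgeR QL unadjusted p = 0.0322, adjusted p = 0.705), which did not pass after adjustment. An exact permutation test that exchanged the ABA and MS labels within each genotype (400 arrangements, two-sided, smallest possible p = 0.005) gave a mean difference of -0.43 on the log2(CPM + 1) scale, with p = 0.065 and p = 0.13 after adjustment over the 2 genes. For WRKY53 the average over both genotypes was -0.32 ± 0.43 (SE; 95% interval -1.27 to 0.63; edgeR QL unadjusted p = 0.472, adjusted p = 0.952), and the exact permutation test gave -0.42 with p = 0.38. Of all features tested, 9.71% had mop1-1 ABA and mop1-1 MS libraries that did not overlap and 11.9% had WT ABA and WT MS libraries that did not. Both WRKY genes overlapped in both comparisons.

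By mean CPM, the order of the groups was mop1-1 MS, mop1-1 ABA, WT ABA and WT MS for WRKY53, and mop1-1 MS, mop1-1 ABA, WT MS and WT ABA for WRKY TF 36. Of the neighbours in these orders, the libraries overlapped in all cases but 1, the mop1-1 ABA and WT MS groups of WRKY TF 36. The share of all features without overlap between these groups was not computed. These values are CPM, not scaled to transcript length, so the levels of the genes were not compared with each other.

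The replicates of WRKY53 spread more than those of most features. Its biological coefficient of variation, the spread between replicates beyond counting that edgeR estimates for each feature, was 0.516, above that of 89.9% of the features tested. That of WRKY TF 36 was 0.345, above 76% of them. In mop1-1 ABA the highest WRKY53 library was 5.26 times the lowest, a ratio that 3.56% of the features reached or exceeded. WRKY TF 36 was tightest in this very group, with a ratio of 1.2 that 72.6% of the features reached or exceeded. It did not share the size of the WRKY53 spread among these 3 libraries, though their order was the same. In mop1-1 MS the ratios were 3.35 and 2.78, reached or exceeded by 7.37% and 9.92% of the features. The library numbered 1 was the highest of its group in 4 of 4 groups for WRKY53 and in 3 of 4 for WRKY TF 36, and whether the number marks anything the groups share is not given in the labels.

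Over the 12 libraries, the log2 levels of the genes had a Pearson r of 0.81 (Spearman rho 0.79), given as a description because both were chosen for being higher in mop1-1. With the group means removed, r was 0.551 (rho 0.538, n = 12). In mop1-1 MS, replicate 1 was highest for both genes, replicate 3 was in the middle and replicate 2 was lowest. In mop1-1 ABA and in WT ABA the order from the highest was replicates 1, 2 and 3 for both genes. In WT MS the genes differed in order.

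**Figure D3:**
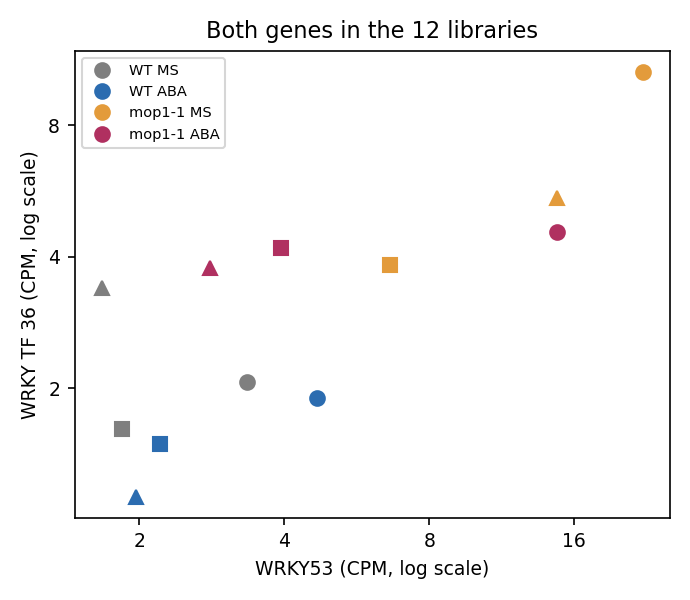
WRKY53 against WRKY TF 36 in the 12 libraries, both in CPM on log axes, with colour giving the group and the symbol giving the replicate number as in the plot of levels (circle 1, square 2, triangle 3). The mop1-1 libraries lie above the WT libraries along WRKY TF 36 (3.78 CPM and more against 3.39 and less), a gene chosen for being higher in mop1-1. The mop1-1 MS replicate 1 is highest for both genes (22.2 and 10.6 CPM).

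Genes of like pattern were listed from the 286 named features tested, by the Pearson r of log2(CPM + 1) over the 12 libraries. For WRKY53 the highest was m22, the MADS-box factor gene also named MADS69 (r = 0.921), with 1.2 ± 0.263 and 1.29 ± 0.382 CPM in WT without and with ABA, against 3.37 ± 1.12 and 1.64 ± 1.03 CPM in mop1-1 (SD, n = 3 each). It was followed by WRKY TF 36 itself, by nrx1 for a nucleoredoxin (0.774), by CPPS2 or an2, which encodes an ent-copalyl diphosphate synthase of diterpenoid phytoalexin synthesis (0.772), and by MMT1 for methionine S-methyltransferase (0.765). CPPS2 was near the limit of detection, with group means of 0.273 to 0.845 CPM and libraries at 0 in 3 of the 4 groups. m22, nrx1 and CPPS2 were also among the 5 highest when the group means were removed (r = 0.856, 0.797 and 0.771). Lowest were pcr1, which encodes a protochlorophyllide reductase of chlorophyll synthesis (-0.792), and PPCK4 for a kinase of phosphoenolpyruvate carboxylase (-0.785). With features without a name included, m22 ranked 6 and WRKY TF 36 ranked 116 of 26400 over the 12 libraries.

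For WRKY TF 36 the highest named genes were nrx1 (r = 0.867), WRKY53, MMT1 (0.804), sam2 for an S-adenosylmethionine synthetase (0.788) and m22 (0.787). PPCK4 was lowest (-0.906), with means of 15.8 and 18.2 CPM in WT without and with ABA and of 5.29 and 6.48 CPM in mop1-1. It was followed by pcr1 (-0.873), with means of 1390 and 1340 CPM in WT and of 854 and 923 CPM in mop1-1. With the group means removed, dba2 (0.851), AP2-EREBP TF 79 (0.833), GATA28 (0.826), and pdi7 and sod3, for a protein disulfide isomerase and a superoxide dismutase (both 0.825), came first, and none of the earlier 5 did. Over the 12 libraries, with features without a name included, nrx1 ranked 85 and WRKY53 ranked 318 of 26400 for WRKY TF 36. These correlations are among libraries that share group, depth and tissue and carry no test. In the RefSeq table of assembly Zm-B73-REFERENCE-NAM-5.0, PPCK4, pcr1 and sam2 are on chromosome 2, which also carries mop1, and the part of that position in their likeness was not tested.

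Without regard to names, 2 features ranked first for each gene. Zm00001d037281 and Zm00001d036357 had r = 0.948 with WRKY53, at means of 0.677 and 0.706 CPM in mop1-1 MS and 0.274 and 0.305 CPM in mop1-1 ABA. The first held 8 counts in WT MS and 9 in WT ABA over 3 libraries each, and the second held 0 in both. Zm00001d038178 (r = 0.968) and Zm00001d045884 (0.957) ranked first for WRKY TF 36, the latter with means of 1.02 and 1.1 CPM in WT without and with ABA and of 8.57 and 3.54 CPM in mop1-1.

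In the RefSeq table, the 20 matched genes nearest by identifier number were all on chromosome 7 for WRKY53 and all on chromosome 4 for WRKY TF 36, so that neither gene lies on the chromosome of mop1. Within 10 identifiers of WRKY53, 9 other genes were tested and 0 were called in Group C or Group D by the edgeR QL test, with median log2 fold changes of -0.042 and 0.11. Within 10 identifiers of WRKY TF 36, 8 were tested and 0 were called, with medians of -0.13 and -0.015. At an unadjusted p below 0.05, 1 and 0 neighbours of WRKY53 and 1 and 2 neighbours of WRKY TF 36 passed in Groups C and D, against 16.0% and 10.2% of all features, and 1.19% and 0.905% of all features were called. DESeq2 called 1 of them, Zm00001d020495 near WRKY53 in Group C, where the QL value was 7.1 (edgeR QL adjusted p = 0.251). This look at neighbours was chosen after the values of both genes had been seen.

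Another 7 WRKY genes had a name in the sources, and 6 of them were tested. The edgeR QL test called 0 of the 6 in Groups A, B, C and D and in the interaction, where 0%, 0%, 1.19%, 0.905% and 0% of all features were called. At an unadjusted p below 0.05, 0, 4, 4, 0 and 1 of the 6 passed in these comparisons, against 3.83%, 7.15%, 16.0%, 10.2% and 4.24% of all features. DESeq2 called 1 of them, WRKY TF 94 in Group C. Their median log2 fold change from WT to mop1-1 was -0.09 under ABA (Group C) and 0.013 without it (Group D), beside 0.015 and -0.0045 over all features, and 3 of the 6 values were positive in each.

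WRKY TF 94 (Zm00001d050195) was at 5.29, 4.79 and 3.93 CPM in WT MS, at 7.5, 8.52 and 8.25 in WT ABA, at 6.62, 2.59 and 4.68 in mop1-1 MS and at 4.63, 3.29 and 4.29 in mop1-1 ABA. Its WT ABA libraries lay above all others, and the share of all features separated in this way was not computed. The log2 fold change was 0.79 ± 0.29 with ABA in WT (SE; edgeR QL unadjusted p = 0.0178, adjusted p = 0.637) and -0.99 ± 0.29 in mop1-1 against WT under ABA (SE; edgeR QL unadjusted p = 0.00524, adjusted p = 0.125). The latter value did not pass here, but it did with DESeq2 (adjusted p = 0.0341) and when the 6 libraries of Group C were fitted alone (edgeR QL adjusted p = 0.0336). Its interaction was -0.98 ± 0.41 (SE; edgeR QL unadjusted p = 0.034, adjusted p = 1).

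WRKY30 (Zm00001d034073) had the highest Group C and Group D values of the 6, and neither passed the test. It was at 6.18, 5.4 and 9.5 CPM in WT MS, at 3.05, 4.54 and 4.73 in WT ABA, at 9.11, 8.29 and 10.3 in mop1-1 MS and at 5.83, 7.21 and 8.96 in mop1-1 ABA. All mop1-1 ABA libraries lay above all WT ABA libraries, with a log2 fold change of 0.84 ± 0.26 (SE; edgeR QL unadjusted p = 0.00683, adjusted p = 0.139), while the mop1-1 MS and WT MS libraries overlapped (0.4 ± 0.25, SE; edgeR QL adjusted p = 0.687). With ABA in WT its value was -0.78 ± 0.26 (SE; edgeR QL unadjusted p = 0.0105, adjusted p = 0.582), without overlap.

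WRKY3 had means of 2.92 and 4.76 CPM in WT without and with ABA and of 2.47 and 3.27 CPM in mop1-1, with a Group B value of 0.71 (edgeR QL unadjusted p = 0.0131, adjusted p = 0.6) and a Group C value of -0.54 (adjusted p = 0.297). WRKY67 and WRKY62 were at 6.44 to 11.6 CPM on average in all groups and had Group D values of -0.16 and 0.037. WRKY45 was low throughout, with group means of 0.733 to 1.19 CPM. Libraries of the groups did not overlap for 4 of the 6 genes in Group B, where WRKY3 and WRKY TF 94 were higher and WRKY30 and WRKY62 lower with ABA, and for 3 of the 6 in Group C, where WRKY30 was higher and WRKY3 and WRKY TF 94 lower in mop1-1. Over all features the share without overlap in either direction was 11.9% in Group B and 24.8% in Group C. In Groups A and D it was 0 of 6, against 9.71% and 13.3%. WRKY96 was too low to be tested, and it is named here after its values were seen. Over 3 libraries each it held 44 counts without and 30 with ABA in WT, and 116 without and 68 with ABA in mop1-1.

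**Figure D4:**
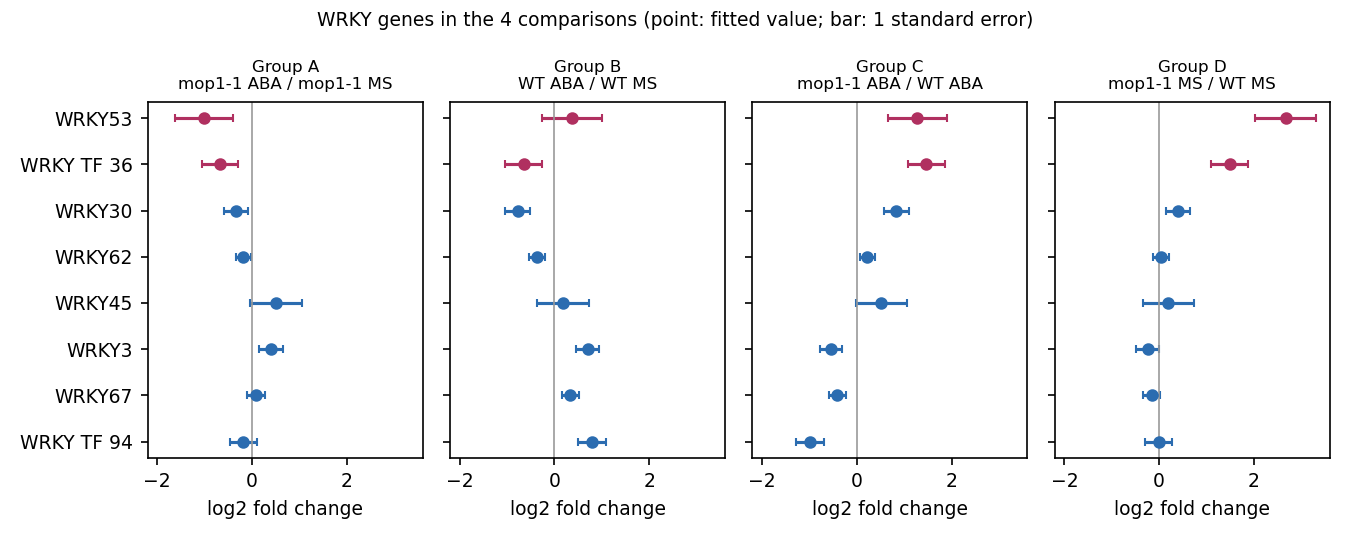
Fitted log2 fold changes of the 8 WRKY genes tested, in Groups A to D (panels), with bars of 1 SE. WRKY53 and WRKY TF 36 (red) were chosen for Groups C and D, where they lie between 1.28 and 2.67, and the other 6 genes (blue) lie between -0.99 and 0.84 in Group C and between -0.24 and 0.4 in Group D.

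Genes of pathways that WRKY factors are known to work with were not called in any of the 4 Groups or in the interaction by the edgeR QL test. These were 1 MAP kinase gene, 5 genes of jasmonate synthesis and signalling and 4 defence genes. Over all features that test called 0%, 0%, 1.19% and 0.905% in Groups A to D and 0% in the interaction. With so few genes listed, 0 calls lie near that share. The MAP kinase gene, MPK17-2, was at means of 7.69 to 9.76 CPM in the 4 groups and reached no unadjusted p below 0.05. Of the 5 jasmonate genes, 0 passed an unadjusted p below 0.05 in Groups A, B and D and 1 did in Group C, TIFY4 for a JAZ-type repressor (log2 fold change -1.12, edgeR QL adjusted p = 0.148), which DESeq2 called. Over all features the share at that level was 16.0% in Group C. Their medians were -0.35 in Group C and -0.14 in Group D.

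Among the 4 defence genes, 0, 1, 2 and 1 had an unadjusted p below 0.05 in Groups A to D, where 3.83%, 7.15%, 16.0% and 10.2% of all features did. DESeq2 called 0 of them and the edgeR exact test 1, in Group C. The chitinase gene (Zm00001d043988), whose kind of enzyme cleaves fungal cell walls, was at means of 32.9 ± 3.92 and 19.9 ± 6.65 CPM in WT without and with ABA, and of 69.9 ± 56.1 and 59.5 ± 15.3 CPM in mop1-1 (SD, n = 3 each). Its log2 fold change was 1.58 ± 0.5 in Group C (SE; edgeR QL adjusted p = 0.154) and 1.09 ± 0.5 in Group D (SE; edgeR QL adjusted p = 0.483), so that it did not pass in either. PAL1, for phenylalanine ammonia-lyase of phenylpropanoid synthesis, had -0.28 in Group C (adjusted p = 0.302). The benzoxazinoid genes bx1 and BX3 had group means of 184 to 234 CPM and 749 to 1020 CPM.

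The 10 genes of ABA response and reception, mostly protein phosphatases 2C, were checked as a sign of the treatment. By the edgeR QL test 0 of 10 were called in any Group, against 0%, 0%, 1.19% and 0.905% of all features in Groups A to D. With ABA the median log2 fold change of the 10 was -0.11 in mop1-1 and 0.0039 in WT, with 0 and 2 at an unadjusted p below 0.05, against 3.83% and 7.15% of all features. The median in WT lies between members of opposite sign. PP2C16 (0.87), PP2C13 (0.72), protein phosphatase 2C 32 (0.53), protein phosphatase 2C 26 (0.47) and PP2C30 (0.26) were positive there. PP2C28 (-0.85), the receptor genes PYL3 (-0.49), PYL5 (-1.2) and CAPIP1, also named PYL10 (-0.25), and dehydrin3 (-0.29) were negative, and none of the 10 passed after adjustment (edgeR QL). Between genotypes all 10 were negative in Group D (median -0.45) and 9 of 10 in Group C (median -0.52), with 2 and 6 at an unadjusted p below 0.05, against 10.2% and 16.0% of all features. DESeq2, which called more of all features than the QL test in both Groups, called 1 and 3 of the 10 in Groups D and C. The smallest edgeR QL adjusted p was 0.0569 in Group C, for protein phosphatase 2C 32, at means of 5.7 and 8.23 CPM in WT without and with ABA and of 3.88 and 3.93 CPM in mop1-1. The 6 shoot markers were also all negative in Groups C and D, with medians of -0.28 and -0.22 and none at an unadjusted p below 0.05. This direction is opposite to that of WRKY53 and WRKY TF 36, and its part in their values was not tested.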

How the data were processed

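The values are counts per gene in whole numbers, not normalized, which the authors deposited for 12 libraries. Their methods name adapter trimming, mapping to B73 version 4 with HISAT2 2.2.1, and assembly and counting with StringTie 2.1.4, whose counts are computed from coverage and need not sum to mapped reads. Whether counting used strand is not given in the sources used here.

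Features with at least 0.58 CPM in at least 3 libraries were scaled by TMM (factors 0.877 to 1.07), and a model of 4 group means was tested by quasi-likelihood in edgeR 4.0.16 under R 4.3.3. The Benjamini-Hochberg adjustment ran over all 26401 features. A standard error is the log2 fold change divided by the square root of F. The scripts were tested on simulated data. DESeq2 1.42.0, other normalizations, filters and fits, a replicate block and leaving out each library were tried, and the edgeR 4 dispersion estimate was added after seeing the data. The members and lists were chosen with earlier results of these data known. Other WRKY genes were named by smallest p or highest CPM, list members by smallest p, and genes of like pattern by the 5 highest and 3 lowest r.

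Names came from the study's list of transcription factors and from RefSeq (Zm-B73-REFERENCE-NAM-5.0), joined through 3941 pairs of older and newer identifiers, which matched 2045 features and named 310. A WRKY gene without a name there was not counted. No coordinates or sequences are given, because the reference differs in build from the counts. The genotype and treatment of each library were taken from its deposited title. The mop1 gene itself was not analysed here, so the genotypes were not checked by it. The direction of each difference between genotypes therefore rests on the titles.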

Additional observations from a re-analysis of the deposited data

How the results depend on the processing

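WRKY53 and WRKY TF 36 were not called in Group A, Group B, the interaction or the ABA effect over both genotypes under any alternative, and their values in Groups C and D stayed positive under all of them. Leaving out 1 library at a time gave WRKY53 values of -2.11 to -0.58 in Group A, -0.12 to 0.75 in Group B, 0.19 to 1.78 in Group C, 2.23 to 3.05 in Group D, -2.49 to -0.9 for the interaction and -0.87 to -0.1 for ABA over both genotypes. Group B turned negative (-0.12) without WT ABA replicate 1, and Group C moved to 0.19 without mop1-1 ABA replicate 1. For WRKY TF 36 the ranges were -0.94 to -0.15 in Group A, -0.86 to -0.29 in Group B, 1.3 to 1.67 in Group C, 0.98 to 1.85 in Group D, -0.79 to -0.4 for ABA over both genotypes and -0.381 to 0.497 for the interaction, whose value near 0 turned positive when 1 of 5 libraries was left out. The cause was not tested.

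With a replicate block the interaction of WRKY TF 36 was 0.077, and WRKY53 had -1.24 in Group A (edgeR QL unadjusted p = 0.00504, adjusted p = 1), with 245 features called in Group C and 188 in Group D. The same-numbered libraries were not closer than others (18 pairs, r of -0.175 to 0.108), and 0 libraries correlated best with their own number, so the block was not used. It changed no call of the other 6 WRKY genes tested. For WRKY53 and WRKY TF 36 it changed no call in Groups A and B or in the interaction.

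One other WRKY gene, WRKY TF 94, was called in Group C by DESeq2 and by the 6 libraries of the comparison alone (1 gene each). Over all features, 315 were called in Group C and 239 in Group D, against 878 and 636 by DESeq2, 780 and 557 by the edgeR exact test, 677 and 156 with the 6 libraries alone, and 138 and 86 among annotated genes alone. Without single libraries the Group C count ran from 147 to 543, and without WT MS replicate 3 the Group D count was 449. In Groups A and B, where 0 were called, the exact test called 1 and 42 and leaving out single libraries called at most 2 and 7, and the interaction had 27 by DESeq2. By Spearman's rho, 4 of the 5 named genes most like WRKY53 and 3 of the 5 for WRKY TF 36 were kept. The lowest library of either gene held 59 counts, and 3 libraries a group limit the precision of every value.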
